A study of Homo sapiens with 6 samples.

Results

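Proteoglycans were examined through 10 genes for their core proteins, out of 23931 named genes on the arrays. They were the glypicans GPC1, GPC3 and GPC4, the syndecans SDC1 and SDC4, and the matrix proteoglycans PRG4, VCAN, BGN, LUM and DCN. Each was found by its gene symbol, and all 10 had a probe set. The list was drawn up with results of these tumours in view, so the difference between the groups is described for its members and not tested.

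Huh7, an established cell line from a human hepatocellular carcinoma, was grown as 6 subcutaneous tumours in nude mice, which lack T cells but keep macrophages, fibroblasts and vessels. In 3 tumours the cells had been stably transfected with pRcCMVi.hIR-A(GFP), which encodes the short human insulin receptor isoform (IR-A) and whose name carries the CMV promoter. In the 3 control tumours they carried the empty vector, and all cells had been selected for G418 resistance and, by cytometry, for GFP. The labels name no clone, culture or mouse for any tumour, so the spread behind a p-value is that between these tumours and could be technical. The values are log2 signals, on which a difference of 1 is a 2-fold change, and the number of arrays limits their precision.

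A proteoglycan is a core protein with long sulfated sugar chains, the glycosaminoglycans. Glypicans sit on the cell surface by a lipid anchor and syndecans span the membrane, and both carry mainly heparan sulfate, which holds growth factors, chemokines and lipoproteins near their receptors. The matrix members are secreted and mostly carry chondroitin, dermatan or keratan sulfate. In liver, hepatocytes use syndecan-1 to clear lipoproteins, GPC3 is a fetal protein that hepatocellular carcinomas make again, and stellate cells and fibroblasts are the usual source of decorin, lumican, biglycan and versican.

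INSR, the transfected gene, read 8.04, 7.61 and 8.47 in the control tumours and 10.65, 11.31 and 11.01 in the IR-A tumours (log2), a 7.75-fold difference in the labelled direction. Hepatocyte markers were bright in every tumour, with ALB between 12.82 and 13.09 and AFP between 12.38 and 12.74. Control tumour 2 stood apart from its group. Across all probe sets its values correlated at 0.982 on average with the other controls and at 0.987 with the IR-A tumours. Values without a tumour are given below where leaving it out moved the difference of a named proteoglycan gene by over 1.5 times (DCN, EPYC and KERA, dim in every tumour, aside), and those without control tumour 2 also where they changed a call.

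PRG4 and LUM had more signal in IR-A tumours by more than 1 on the log2 scale, BGN had less, and SDC4 had slightly more. The other 6 members, GPC3 among them, differed by less than 0.35 in either direction. The IR-A and control values did not overlap for 4 of the 10 members, PRG4, LUM and GPC3 on the higher and BGN on the lower side. Over all 24726 probe sets, 17.2% had groups that did not overlap (7.73% higher and 9.45% lower), and since the members were chosen on this contrast nothing is read from their count. The median log2 difference was 0.31 over the 10 members and -0.03 over all probe sets. In limma's fit over all probe sets, none was called at an adjusted p of 0.05 (0 of them, 0%), and 3493 (14.1%) reached an unadjusted p under 0.05. In whole tumours, fewer cells of a type and less RNA per cell cannot be told apart.

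**Figure D1:**
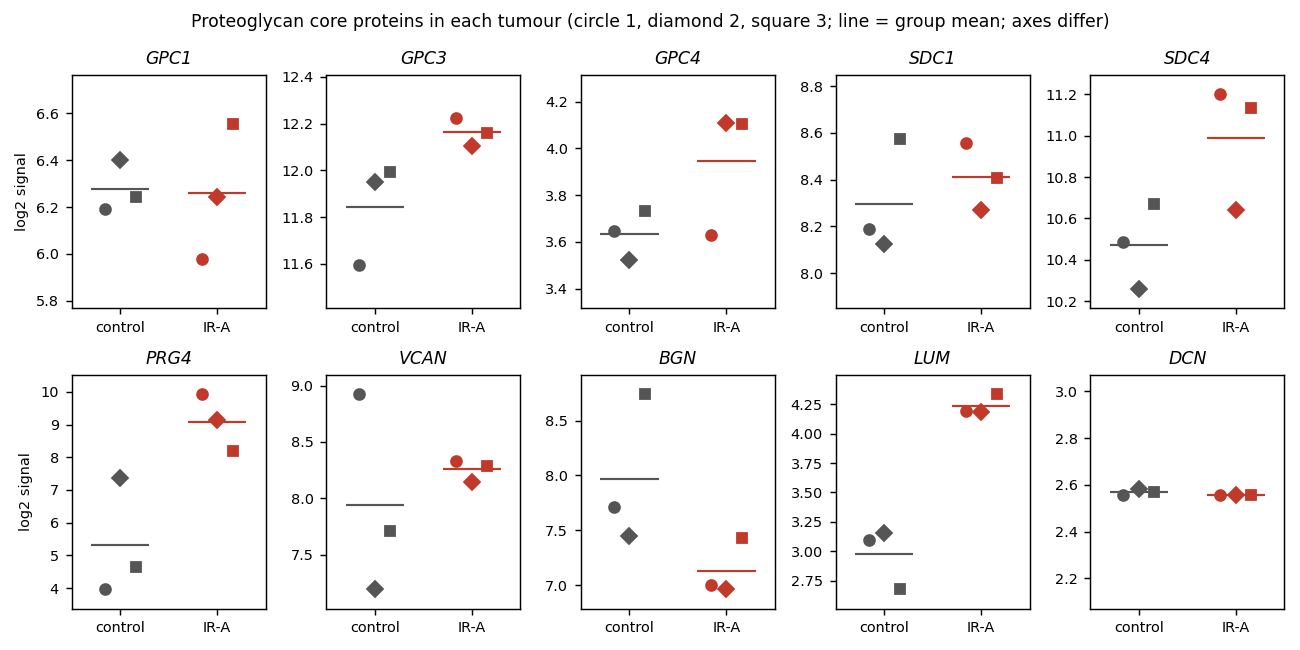
Log2 signal of the 10 proteoglycan core protein genes in each control (grey) and IR-A (red) tumour, with the tumour number given by the symbol and the group mean by the line; the vertical axes differ between panels. PRG4 and LUM separate clearly, while the diamond of control tumour 2 lies far above the other controls for PRG4 (7.37 against 3.96 and 4.64).

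PRG4 encodes proteoglycan 4, or lubricin, the mucin-like lubricant of joint surfaces. Its log2 signal was 3.96, 7.37 and 4.64 in the control tumours and 9.92, 9.15 and 8.19 in the IR-A tumours. All IR-A tumours were above all controls, but the controls themselves spanned 3.40. The means were 5.32 ± 1.80 (SD, n = 3) and 9.09 ± 0.87 (SD, n = 3), a log2 difference of 3.77 with SE 0.90, or 13.6-fold. Control tumour 2 accounted for much of the control spread, lying 3.07 above the mean of the other controls. Without it the log2 difference was 4.79 (SE 0.52), or 27.6-fold. Control tumours 1 and 3 lay below the median probe set of their arrays (4.66 to 4.74 over the arrays), and every IR-A tumour lay far above it. The nearest protein-coding neighbours of PRG4 had log2 differences of -0.05 (SE 0.09) for HMCN1 and -0.02 (SE 0.13) for TPR.

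Markers of cartilage and joint lining, where PRG4 is best known, were read beside it. Of 8 such genes, 1 had groups that did not overlap, the transcription factor SOX9 (higher), beside 17.2% of all probe sets. The cartilage collagen COL2A1 lay between 4.17 and 4.30 in all tumours, and CLIC5, a marker of the joint lining, was in the dimmest 25% of probe sets on every array. The summed linear signal of the list was 3278 to 4817 in control and 4939 to 6713 in IR-A tumours. FN1, the plasma and matrix protein fibronectin that hepatocytes also secrete, made up most of it. The part of such cells in the PRG4 signal, and the part of the Huh7 cells themselves, was not tested.

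LUM encodes lumican, a small leucine-rich proteoglycan that binds collagen fibrils and spaces them. Its log2 signal was 3.10, 3.16 and 2.68 in control and 4.19, 4.18 and 4.33 in IR-A tumours. The IR-A tumours agreed within 0.15 and the closest pair across the groups was 1.03 apart. The log2 difference was 1.26 (SE 0.15), or 2.39-fold, and ran from 1.11 to 1.35 with each tumour left out in turn. The signal was dim throughout, below the median probe set in 6 of 6 tumours and in the dimmest 25% in the 3 controls. RMA compresses differences at that level.

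DCN encodes decorin, another small leucine-rich proteoglycan that binds collagen fibrils, and is the neighbour of LUM in the genome. It read 2.56, 2.58 and 2.57 in control and 2.56 in each IR-A tumour, with 2.67% of probe sets at or below it. That is the floor of the arrays, so no order can be read from its values. The next small leucine-rich genes of the same cluster, KERA (log2 difference -0.07, SE 0.09) and EPYC (-0.20, SE 0.11), were also at the floor, with mean signals from 2.57 to 2.77. BTG1, an antiproliferative gene that follows DCN, differed by 0.70 (SE 0.17). LUM was the 1 proteoglycan gene of this cluster to leave the dimmest 25% of probe sets in any tumour, and did so in the IR-A tumours.

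BGN encodes biglycan, a small leucine-rich proteoglycan of many connective tissues. It was the 1 member with less signal in IR-A tumours by more than its SE. The control tumours read 7.71, 7.44 and 8.74 and the IR-A tumours 7.01, 6.96 and 7.43 on the log2 scale. The groups were separated by only 0.018, between control tumour 2 and IR-A tumour 3. The log2 difference was -0.83 (SE 0.34), or 1.78-fold lower in IR-A tumours. It rested in part on control tumour 3, without which it was -0.45, and it was -1.09 without control tumour 2.

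VCAN encodes versican, a large chondroitin sulfate proteoglycan that binds hyaluronan. The controls spread from 7.19 to 8.92 and enclosed the IR-A tumours, which read 8.33, 8.14 and 8.29. The mean log2 difference of 0.31 (SE 0.41) was smaller than the control SD of 0.89. It was -0.06 without control tumour 2, 0.80 without control tumour 1 and 0.20 without control tumour 3, so no direction can be given.

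Among the glypicans, GPC3 was the brightest probe set of the list, with 99.8% of probe sets at or below it. GPC3, which binds Wnt and Hedgehog ligands and is a marker of hepatocellular carcinoma, read 11.59, 11.95 and 11.99 in control and 12.22, 12.10 and 12.16 in IR-A tumours. The IR-A tumours were all higher, by 0.11 at the closest. The log2 difference was 0.32 (SE 0.13), or 1.25-fold, and without control tumour 1 it was 0.19. GPC4, its neighbour on the same chromosome, was dim and read 3.65, 3.52 and 3.73 in control against 3.63, 4.11 and 4.10 in IR-A tumours. IR-A tumour 1 lay within the controls and the other IR-A tumours above them, with a log2 difference of 0.31 (SE 0.15) that was 0.47 without IR-A tumour 1. GPC1, which is widely expressed and raised in several carcinomas, read 6.19, 6.40 and 6.24 in control and 5.98, 6.24 and 6.55 in IR-A tumours. Its groups overlapped (log2 difference -0.02, SE 0.16), and the difference ran from -0.17 to 0.12 with each tumour left out in turn.

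Of the syndecans, SDC4, a co-receptor of integrins in focal adhesions, read 10.48, 10.26 and 10.67 in control and 11.20, 10.64 and 11.13 in IR-A tumours. IR-A tumours 1 and 3 were above every control, and IR-A tumour 2 was just below control tumour 3. The log2 difference was 0.52 (SE 0.18), or 1.43-fold, and ran from 0.41 to 0.70 with each tumour left out. SDC1, the lipoprotein receptor of hepatocytes, read 8.19, 8.13 and 8.57 in control and 8.56, 8.27 and 8.41 in IR-A tumours. These groups overlapped, with a log2 difference of 0.12 (SE 0.15) that ran from 0.03 (without control tumour 2) to 0.25 (without control tumour 3). Signal shared between family members was not checked for any of these probe sets.

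**Figure D2:**
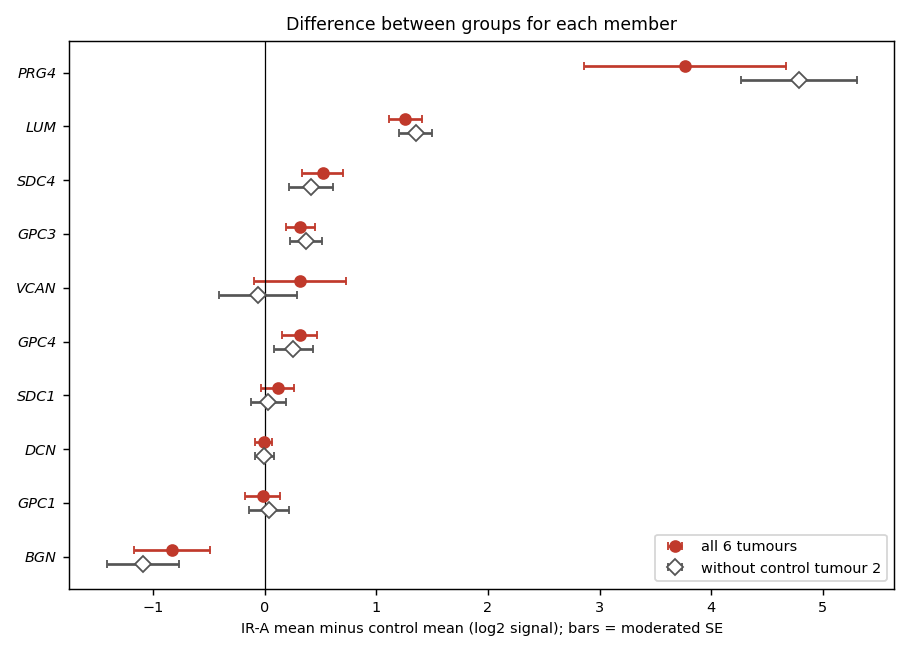
Mean log2 signal of IR-A tumours minus that of control tumours for each of the 10 genes, with the moderated SE, from all 6 tumours (red circles) and without control tumour 2 (open diamonds). PRG4 moves from 3.77 to 4.79 when that tumour is left out, and VCAN from 0.31 to -0.06.

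RefSeq promoter sequences (GRCh38.p14) were matched for 7 of the 10 members by symbol, those of PRG4, VCAN, BGN, GPC1, GPC4, SDC1 and SDC4. The 250 bases before the start site are shown for the member of largest difference (PRG4), for the syndecan with more signal (SDC4) and for the member with less (BGN). They lie at chr1:186296023-186296272 on the plus strand, chr20:45348425-45348674 on the minus strand and chrX:153494730-153494979 on the plus strand. Capitals mark matches on either strand of the TATA box core TATAA, of the box named CCAAT and of the GC box, GGGCGG. Matches of different motifs did not overlap.
PRG4: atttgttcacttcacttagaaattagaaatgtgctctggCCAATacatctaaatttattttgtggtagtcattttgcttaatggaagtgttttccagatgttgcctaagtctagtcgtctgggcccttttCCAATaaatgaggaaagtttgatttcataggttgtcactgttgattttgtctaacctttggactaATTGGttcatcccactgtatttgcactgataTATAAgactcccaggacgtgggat
SDC4: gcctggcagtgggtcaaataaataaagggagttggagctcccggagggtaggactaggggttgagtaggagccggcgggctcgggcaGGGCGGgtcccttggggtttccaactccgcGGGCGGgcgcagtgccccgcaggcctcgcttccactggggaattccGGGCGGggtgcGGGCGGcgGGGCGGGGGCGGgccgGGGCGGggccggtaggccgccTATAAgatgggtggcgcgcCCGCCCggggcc
BGN: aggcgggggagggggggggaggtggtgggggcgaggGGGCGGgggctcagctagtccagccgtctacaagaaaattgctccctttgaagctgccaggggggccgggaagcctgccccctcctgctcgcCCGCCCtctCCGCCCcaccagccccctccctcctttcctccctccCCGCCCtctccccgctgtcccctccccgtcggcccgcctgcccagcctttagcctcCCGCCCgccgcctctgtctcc

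The PRG4 promoter was poor in G and C, at 37.2% against a median of 58% over 27305 promoters, and the other 6 were richer than that median, from 60.8% (VCAN) to 84% (GPC1). It held 1 TATA box core, which began 24 bases before the start site, and 3 CCAAT boxes. The SDC4 promoter (73.6% G and C) held 8 GC boxes and 1 TATA box core, and the BGN promoter (74%) held 5 GC boxes. Of all promoters, 19.6% held the TATA box core, 33.0% the CCAAT box and 42.3% the GC box in this window. TGTTTAC, a forkhead motif of the kind read by FOXO factors that insulin signalling restrains, was in 2.98% of all promoters and in 0 of the 7, which says only that these letters are not in this window.

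The other glypicans and syndecans were measured too, and none of these 5 passed limma's test over all probe sets (lowest adjusted p = 0.155). GPC5 read 3.99, 4.53 and 4.40 in control and 5.06, 4.99 and 4.99 in IR-A tumours, with a mean difference of 0.71 (SE 0.15). SDC3, a syndecan best known from neurons, read 3.85, 6.24 and 5.90 in control and 6.98, 6.83 and 6.33 in IR-A tumours, a difference of 1.38 (SE 0.61, adjusted p = 0.380 in limma). Neither gene's groups overlapped, and control tumour 1, the low value of SDC3, set much of its difference, which was 0.64 without that tumour. GPC2 differed by -0.35 (SE 0.16), or by -0.23 without control tumour 1, with overlapping groups. GPC6 (0.23, SE 0.17) and SDC2 (0.28, SE 0.13), named beyond the 3 of smallest p, overlapped as well. The GPC6 difference was 0.06 without control tumour 2 and 0.35 without control tumour 3. Among 32 other core proteins, such as perlecan, agrin, aggrecan and the remaining small leucine-rich genes, 0 passed. At an unadjusted p under 0.05 there was 1 (3.1%, against 14.1% of all). That gene was PODN, podocan (-0.41, SE 0.16). TSKU, tsukushi, differed by 0.37 and the neural CSPG5 by -0.22 (-0.14 without IR-A tumour 1), and 19 of the 32 genes lay below the median probe set in every tumour.

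Further lists covered the enzymes and carriers behind the sugar chains and the proteins that cut or bind proteoglycans. With the other core proteins above they made 11 lists of 196 genes, of which 186 had a named probe set. None of the 186 passed an adjusted p of 0.05 in limma (lowest adjusted p = 0.126). At an unadjusted p under 0.05 there were 33 (17.7%), 23 higher and 10 lower, beside 14.1% of all probe sets, of which 7.1% were higher and 7.03% lower. The number was 47 without control tumour 2, where 21.1% of all probe sets met the same limit. It was 20 when IR-A tumour 1 was left out, a setting for which the share of all probe sets is not given. Groups did not overlap for 38 of the 186 (20.4%), against 17.2% of all. The median log2 difference of the 186 was 0.00092, with 93 above 0. The values that follow are those of the 3 genes of smallest p in each list, none of which passed.

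Chains of both kinds start from a common linkage region, and 0 of its 7 enzyme genes had an unadjusted p under 0.05. XYLT1, which adds the first sugar, differed by 0.32 (SE 0.17), and the galactosyltransferases B4GALT7 and B3GALT6 by -0.21 and -0.19. Each of these moved with 1 tumour: XYLT1 was 0.14 without IR-A tumour 3, B4GALT7 -0.14 without IR-A tumour 2, and B3GALT6 -0.11 without control tumour 1. Heparan sulfate is then built and modified by a set of which 22 genes were measured. At an unadjusted p under 0.05, 3 were higher and 0 lower (13.6%, against 14.1% of all probe sets). GLCE, the epimerase that turns glucuronic into iduronic acid, read 6.41, 6.70 and 6.54 in control and 7.88, 7.29 and 7.57 in IR-A tumours. Its log2 difference was 1.03 (SE 0.17, adjusted p = 0.131 in limma), with all IR-A tumours above all controls. EXT1, a subunit of the chain polymerase, differed by 0.57 (SE 0.16, adjusted p = 0.216 in limma), and SULF1, which removes sulfates from finished chains, by 0.22 (SE 0.09) at a dim signal.

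Among 16 chondroitin and dermatan sulfate genes, 0 were higher and 1 lower at an unadjusted p under 0.05 (6.25%, against 14.1% of all). CHSY1, a chondroitin polymerase, read 5.41, 4.67 and 5.13 in control and 4.28, 4.64 and 4.20 in IR-A tumours. The groups did not overlap, although control tumour 2 and IR-A tumour 2 were close, and the log2 difference was -0.70 (SE 0.21, adjusted p = 0.238 in limma). The sulfotransferases CHST15 and CHST7 differed by -0.44 and 0.22. CHST15 was -0.14 without control tumour 1 and -0.67 without control tumour 2, and CHST7 ran from 0.14 without control tumour 1 to 0.36 without control tumour 3. Whether heparan and chondroitin sulfate genes differed from each other was not tested.

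Of 11 genes that supply sulfate and sugar precursors, 3 were higher and 1 lower at an unadjusted p under 0.05 (36.4%, against 14.1% of all). SLC35B3, which carries the active sulfate donor into the Golgi, differed by 0.80 (SE 0.25), and without control tumour 2 by 1.10 (adjusted p = 0.0261 in limma). The cell's sulfate importer SLC26A2 differed by 0.42 (SE 0.13). UGDH, which makes the glucuronic acid donor, read 10.61, 10.58 and 10.63 in control and 10.28, 10.22 and 10.41 in IR-A tumours. All IR-A values of UGDH were lower, by a mean of -0.30 (SE 0.09, adjusted p = 0.236 in limma).

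Proteases, sheddases and heparanases numbered 19, with 3 higher and 1 lower at an unadjusted p under 0.05 (21.1%, against 14.1% of all). BMP1, which trims the propeptides of collagens and of biglycan, differed by 0.52 (SE 0.15), and ADAM10, a membrane sheddase, by 0.42 (SE 0.14) or, without control tumour 2, by 0.28. ADAMTS9, which cuts versican, differed by -0.58 (SE 0.19), and by -0.79 without control tumour 2 (adjusted p = 0.0499 in limma). Of 13 lysosomal enzymes of glycosaminoglycan breakdown, 3 were higher and 0 lower at an unadjusted p under 0.05 (23.1%, against 14.1% of all). They were the heparan sulfate enzymes HGSNAT (0.69, SE 0.21) and SGSH (0.36, SE 0.14) and the iduronate sulfatase IDS (0.54, SE 0.16), with adjusted p values of 0.234, 0.339 and 0.239 in limma.

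In the hyaluronan list, 4 of 18 genes were higher and 1 lower at an unadjusted p under 0.05 (27.8%, against 14.1% of all). ITIH2, a plasma heavy chain that is transferred onto hyaluronan, read 12.22, 12.34 and 12.10 in control and 12.80, 12.53 and 12.70 in IR-A tumours, with a mean difference of 0.46 (SE 0.11). LYVE1, a hyaluronan receptor of lymphatic vessels, differed by 0.90 (SE 0.21) at a dim signal. HMMR, a hyaluronan-binding protein that also serves the mitotic spindle, differed by -1.25 (SE 0.25). The lowest adjusted p of the list was 0.147 in limma.

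Among 24 genes listed as heparan sulfate-binding ligands, 2 were higher and 4 lower at an unadjusted p under 0.05 (25%, against 14.1% of all). FGF19, an endocrine growth factor, read 8.17, 7.39 and 8.25 in control and 5.77, 5.78 and 6.37 in IR-A tumours. The groups were far apart, with a log2 difference of -1.96 (SE 0.28, adjusted p = 0.126 in limma). It was -2.24 without control tumour 2 (adjusted p = 0.0261 in limma). FGF2 differed by -0.55 (SE 0.17) and apolipoprotein E, APOE, by 0.68 (SE 0.16). Of 19 partners of glypicans and syndecans, 4 were higher and 1 lower at an unadjusted p under 0.05 (26.3%, against 14.1% of all). The integrin subunit ITGB3 differed by 1.34 (SE 0.27), the peptidase DPP4 by 0.67 (SE 0.13) and the tetraspanin CD81 by -0.84 (SE 0.19), with adjusted p values of 0.148, 0.147 and 0.161 in limma.

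**Figure D3:**
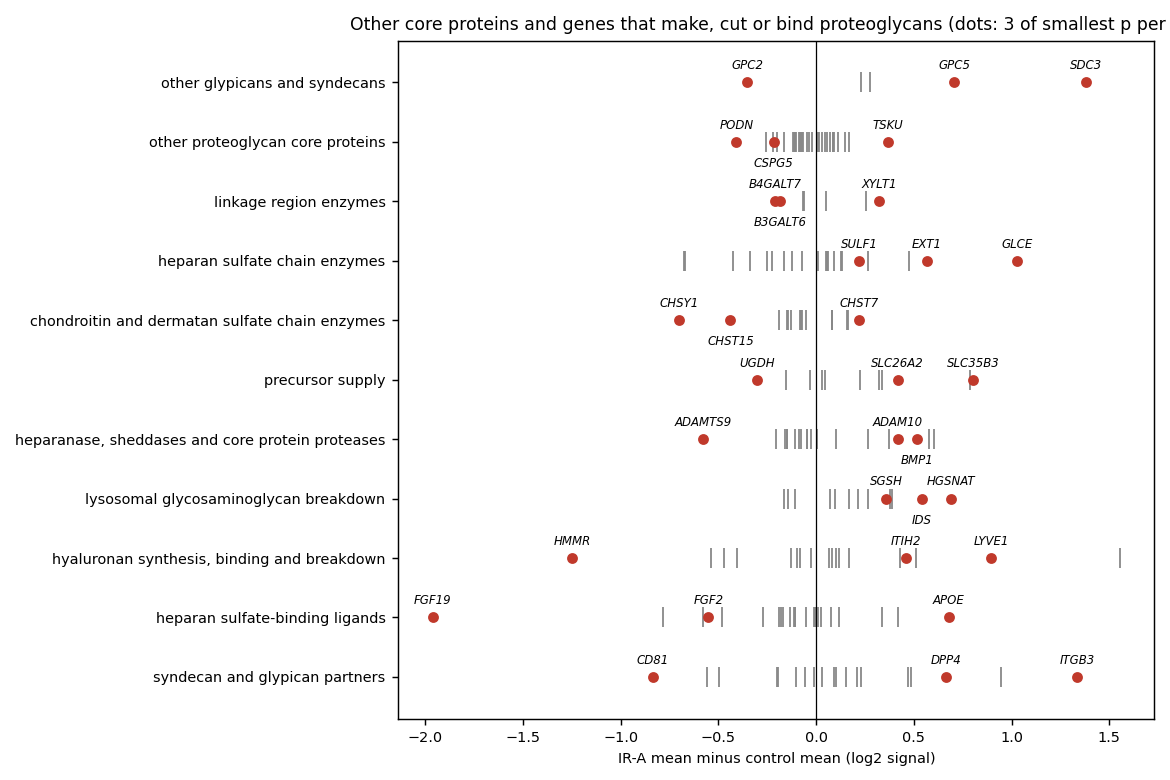
Mean log2 signal of IR-A tumours minus that of control tumours for 186 genes in 11 lists; red dots are the 3 genes of smallest p in each list and grey ticks the others. No gene passed limma's adjusted test; FGF19 lies lowest at -1.96 and GLCE is the highest of the heparan sulfate chain enzymes at 1.03.

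Fibroblasts commonly make the matrix members, so fibroblast markers were set beside them. Of 16 such genes, 4 were higher and 2 lower without overlap between the groups, beside 7.73% and 9.45% of all probe sets. Over the 16, 10 log2 differences were above 0 and 6 below, with a median of 0.09. COL1A2 (log2 difference 0.83) and FBN1 (1.24) were 2 of the 4 higher ones. They were picked from that side and do not stand for the list. FAP and POSTN, which define activated fibroblasts, were in the dimmest 25% of probe sets on every array. The summed linear signal of the list was 799 to 961 in control and 981 to 1078 in IR-A tumours. The highest control sum (961) and the lowest IR-A sum (981) were close. The part of fibroblasts in the LUM difference was not tested. These arrays target human transcripts, and how much host RNA they read was not measured.

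Markers of other cell types were summed in the same way. Over all probe sets, 17.2% were free of overlap (7.73% higher and 9.45% lower). Pericyte and smooth muscle markers summed to 212 to 256 in control and 235 to 245 in IR-A tumours, with 0 of 9 genes free of overlap. Endothelial markers summed to 190 to 217 and 200 to 213, with 1 of 11 free of overlap (higher). Hepatic stellate markers summed to 255 to 710 and 497 to 643, with 1 of 8 free of overlap (lower). Macrophage markers summed to 3696 to 5741 and 5043 to 6555, with 3 of 11 free of overlap (2 higher and 1 lower). Of these 11, 5 log2 differences were above 0 and 6 below, with a median of -0.009. In every tumour, 6 of the 11 lay below the median probe set, so brighter genes made up most of the sum. PTPRC, CD163 and MRC1 were in the dimmest 25% on every array. The 11 hepatocyte markers, which a tumour of liver cells should carry, summed to 48161 to 58366 in control and 57873 to 62724 in IR-A tumours, with 4 free of overlap, all higher.

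**Figure D4:**
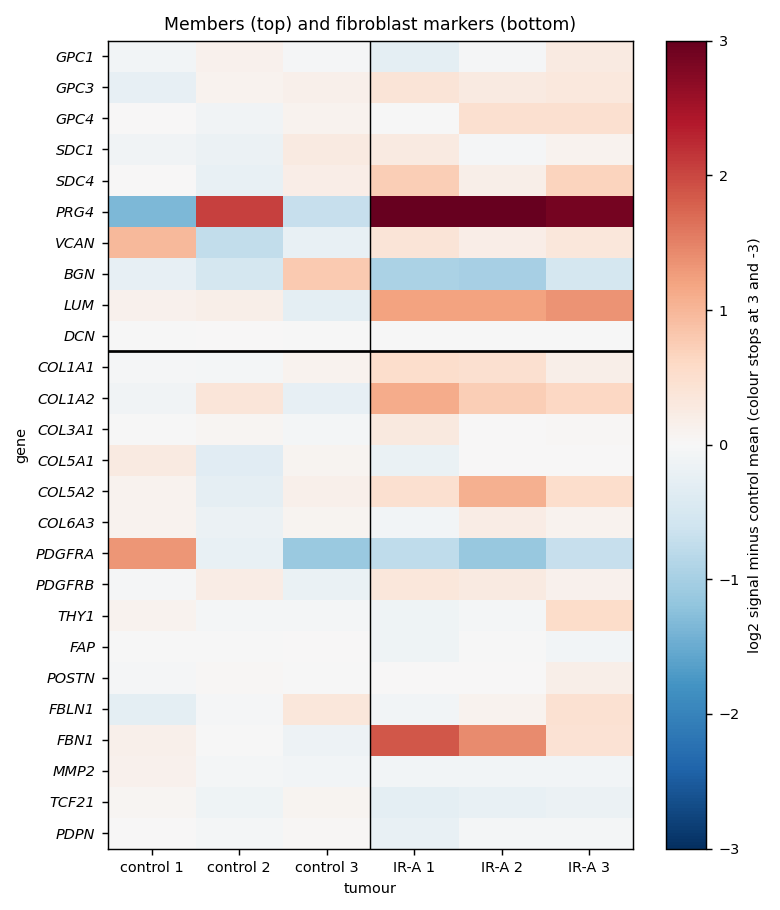
Log2 signal of each tumour minus the control mean, for the 10 proteoglycan genes (above the line) and 16 fibroblast markers (below it), with red higher and blue lower and the colour stopped at a difference of 3 in either direction. LUM is red in all 3 IR-A tumours, as are COL1A2 and FBN1, picked from the higher markers, while DCN, FAP and POSTN stay close to white. Of the 16 markers, 4 were higher and 2 lower in IR-A tumours without overlap.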

How the data were processed

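Total RNA of the 6 tumours was labelled for Affymetrix arrays, per the labels' protocols. The deposited table gives a log2 signal for every probe set on every array. The submitters' processing notes name RMA, which normalizes between arrays, and Partek, with no version. That the values are log2 was read from their range. The genome build is not given in the sources used here.

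GEO's probe annotation named 23934 of 24726 probe sets. Of symbols with several probe sets, that of the highest mean was kept. IR-A and control tumours were compared by lmFit and eBayes of limma 3.58.1 (R 4.3.3) without a filter. All 24726 p-values were adjusted together by Benjamini-Hochberg, and 0.05 was the threshold. SE are the moderated ones. The fit was also run on simulated data, and the outcome is not given here. The members and lists were chosen with earlier results of these data known. Named genes were the 10 members, INSR and, per list, up to 4 genes past the threshold or else the 3 of smallest p. Genes of marker lists and neighbours of the members were named after their values were seen. No arrays were copies, as at most 4.15% of values were shared. Alternatives were quantile normalization, median centring, dropping the dimmest 25% or 50%, an intensity trend, robust moderation, array weights, a replicate block and leaving out each tumour. Plots used Python 3.11.15 and matplotlib 3.10.9.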

Additional observations from a re-analysis of the deposited data

How the results depend on the processing

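The number of probe sets with an adjusted p under 0.05, 0 as reported, was 14 without the dimmest 25% of probe sets, 20 without the dimmest 50% and 11 with array weights, and ran from 0 to 308 with 1 tumour left out. All calls in those last fits came without control tumour 2. The related genes past that threshold, 0 as reported, ran from 0 to 3 with 1 tumour left out (SLC35B3, ADAMTS9 and FGF19, without control tumour 2), and were 0 in the 8 other settings. Those with an unadjusted p under 0.05, 33 as reported, ran from 20 (without IR-A tumour 1) to 47 with 1 tumour left out. In the other settings they ran from 27 to 43. The matching share of all probe sets is given above only for the main fit and without control tumour 2. Members with groups that did not overlap, 4 as reported, ran from 4 to 6 with 1 tumour left out. They were 5 after quantile normalization or median centring, and 3 without the dimmest 50%, a filter that removed 3 members. The share of all probe sets without overlap is not given for these settings, so nothing is read from these counts. The sign changed in at least 1 setting for DCN, VCAN and GPC1 (DCN 0.019 after quantile normalization, GPC1 0.12 without IR-A tumour 1), and for none of the 33 related genes named. Same-numbered tumours did not deviate together (correlations of -0.29, -0.36 and 0.02), and differently numbered ones ran from -0.32 to 0.50. With 3 tumours per group this cannot exclude a pairing by number, and the main fit treated the tumours as unpaired. With the replicate block the counts were 0 probe sets called, and 0 and 32 related genes. The table holds no background measure, so the dim genes LUM, GPC4 and DCN carry the least certain values.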
